A study of Mus musculus with 5 samples.

Results

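The Slit ligands, their Robo receptors and the srGAPs, GTPase activating proteins of the same pathway, were examined as binding loci of NEUROD2, a basic helix-loop-helix transcription factor of cortical projection neurons. The members were the 9 genes Slit1, Slit2, Slit3, Robo1, Robo2, Robo3, Srgap1, Srgap2 and Srgap3, out of 21938 protein-coding genes. A NEUROD2 peak belonged to a member when its midpoint lay within the gene, taken as the transcript with the longest span, or within 50 kb of either end. The start of a gene, or its transcription start site (TSS), is that of this transcript unless stated otherwise. Of the 94621 peaks of the series, 311 met this rule, 160 with antibody ab1, 125 with ab2 and 26 with ab3. Merging overlapping peaks gave 172 of the 53837 merged regions, and no peak fell in the loci of more than 1 member.

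The study mapped NEUROD2 by ChIP-Seq, that is chromatin immunoprecipitation followed by sequencing, in the cerebral cortex of BALB/c mouse embryos at mid-gestation (E14.5), and no genotype or treatment was compared. Chromatin was precipitated with 3 NEUROD2 antibodies, ab168932 raised in mouse (ab1) and ab104430 and ab109406 raised in rabbit (ab2 and ab3), each sequenced as 1 library. The GFP antibodies sc-8334 (rabbit) and 4B10B2 (mouse) provided the control libraries, so that ab2 and ab3 were called against the same control. Each precipitation pooled the cortices of embryos from several litters, and the projection neurons that express NEUROD2 cannot be told apart from other cortical cells in these libraries, which hold no expression markers to check the tissue. With 1 library per antibody there is no biological replicate, no test between groups was possible, and every comparison below is a description. Intervals are 95% Wilson intervals and cover counting error only.

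Slit proteins are secreted guidance cues that repel growing axons and migrating neurons through Robo receptors on the cell surface. The cytoplasmic part of a Robo receptor has no enzyme activity of its own and recruits adaptors and GTPase regulators, among them the srGAPs, which regulate the actin cytoskeleton and bend membranes through an F-BAR domain. In the developing forebrain Slit-Robo signalling keeps callosal and corticofugal axons on their paths and affects the migration of cortical neurons, and the srGAPs shape the leading process of these neurons.

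A peak score in these lists is 10 times the −log10 of the p-value that the peak caller gave against the GFP control, with a lowest value of 50 in ab1 and ab2. Scores were not scaled between libraries, so each is also given as a percentile of the peaks of its own antibody, for which 50 is the median peak. A region is called shared here when it held peaks of at least 2 antibodies. The median score was 149 in ab1, 127 in ab2 and 89.4 in ab3, and ab3 had by far the fewest peaks. Within ab1, 661 peaks share the score of 3100, so these tied peaks have no order among them. The highest ab1 score was 3233, and why so many peaks tie below it was not tested. Their order against peaks with higher scores is therefore uncertain.

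NEUROD2 belongs to the factors that bind E-boxes, the 6-base sequence CANNTG. The study's extended form of the motif is CANNTG with the middle pair GC, GA, TC or TA, followed by G or T. To show what the strongest shared region of a member looks like, 90 bases of the plus strand of mm10 around the match closest to the midpoint of the region are printed, with complete matches on either strand in capitals. The matches of Slit2, Robo2 and Srgap3 lie 192, 159 and 125 bp from the midpoint, outside the central 200 bp in which motifs are counted below. The allowed middle pairs include their own reverse complements, so 1 core can match on both strands, which gives 8 capitals for 2 overlapping matches. The strongest region is the one with the highest sum of percentiles over the 3 antibodies, an absent peak adding 0. For Srgap2 the strongest region is not printed, since each stretch around a match overlapped an annotated exon, and its TSS region is shown instead.
Slit1, chr19:41685453-41685542, intron 4: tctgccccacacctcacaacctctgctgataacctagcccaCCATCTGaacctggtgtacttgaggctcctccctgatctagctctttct
Slit2, chr5:48130137-48130226, intron 4: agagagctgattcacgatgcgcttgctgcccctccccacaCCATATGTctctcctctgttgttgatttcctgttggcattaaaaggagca
Slit3, chr11:35142882-35142971, intron 1: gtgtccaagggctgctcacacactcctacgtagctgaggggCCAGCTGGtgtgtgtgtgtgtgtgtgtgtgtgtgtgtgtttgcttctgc
Robo1, chr16:72888173-72888262, intron 2: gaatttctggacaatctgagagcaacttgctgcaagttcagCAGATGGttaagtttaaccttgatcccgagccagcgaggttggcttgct
Robo2, chr16:74090147-74090236, intron 2: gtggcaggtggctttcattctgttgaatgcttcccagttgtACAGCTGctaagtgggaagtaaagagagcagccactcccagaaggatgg
Robo3, chr9:37438215-37438304, upstream of the gene: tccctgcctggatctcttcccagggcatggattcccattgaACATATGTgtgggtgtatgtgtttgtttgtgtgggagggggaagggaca
Srgap1, chr10:121956660-121956749, intron 1: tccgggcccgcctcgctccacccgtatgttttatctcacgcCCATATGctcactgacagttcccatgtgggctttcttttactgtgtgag
Srgap2, chr1:131525962-131526051, TSS region: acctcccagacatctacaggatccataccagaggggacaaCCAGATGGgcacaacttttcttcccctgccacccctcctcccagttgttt
Srgap3, chr6:112734092-112734181, intron 18: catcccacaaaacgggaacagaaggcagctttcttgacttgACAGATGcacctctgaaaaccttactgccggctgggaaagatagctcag

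All 9 members had at least 1 shared region, a feature of 67.6% of protein-coding genes with the same 50 kb flanks. Of the 172 regions, 113 were shared (65.7%, interval 58.3 to 72.4), against 59.9% of the merged regions of the series. Peaks of all 3 antibodies were present in 25 of the 113 shared regions (22.1%, 15.5 to 30.6), close to the 22.2% of the series. Such a region occurred at 6 members, Slit1, Slit3, Robo1, Robo2, Robo3 and Srgap1, and at 26.7% of protein-coding genes. Including the flanks, the loci of 8 members were 243 to 687 kb long and that of Robo3 117 kb, against a median of 117 kb over protein-coding genes, and a longer locus has more room for a region. The 59 remaining regions had a peak of a single antibody, 46 with ab1, 12 with ab2 and 1 with ab3. The shared regions rest on ab1 and ab2, since requiring both remaining antibodies left 25 without ab1, 25 without ab2 and all 113 without ab3.

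**Figure D1:**
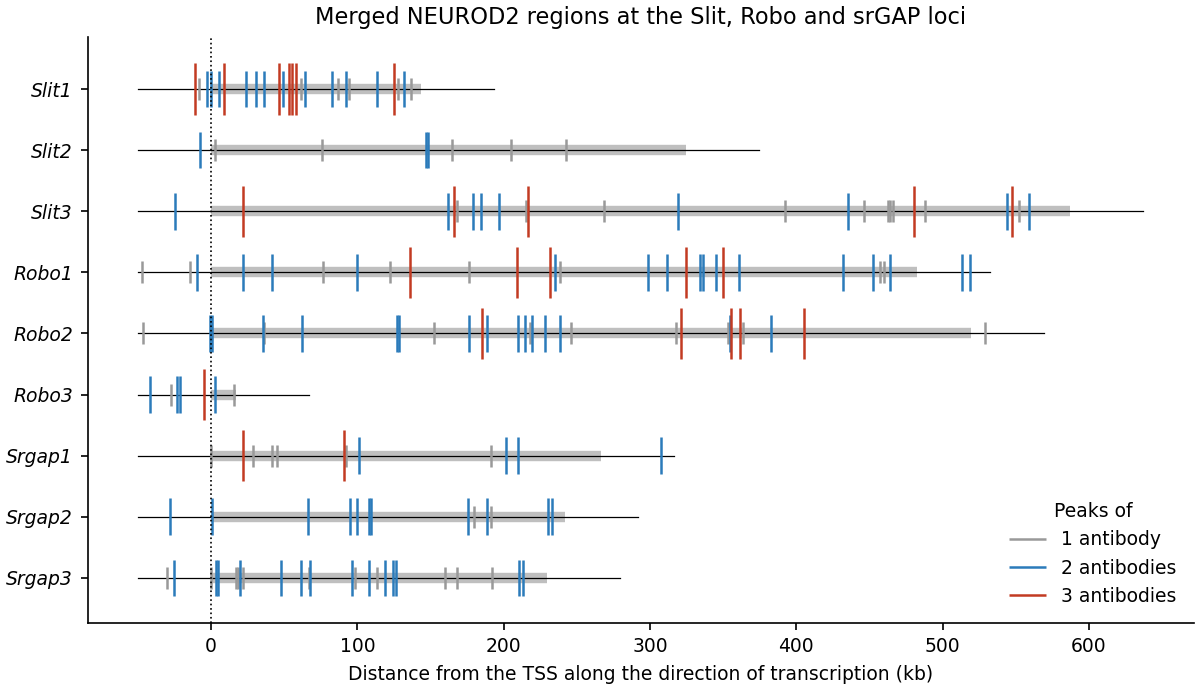
Each row is a member, drawn from 50 kb upstream to 50 kb downstream of the gene, with the gene itself as the grey bar and the distance from the transcription start site (TSS) in kb on the horizontal axis. Vertical strokes are merged regions with peaks of 1, 2 or 3 antibodies, and Slit1 holds 19 shared regions in the second shortest gene, while Slit2 holds 3.

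Because the loci differ in length, regions were also counted per 100 kb of locus. Slit1 had the highest density, 7.81 shared regions per 100 kb, which ranked 188 of 21938 protein-coding genes. Robo3 followed with 4.27, Srgap3 with 4.25, Robo1 with 3.61, Robo2 with 3.23 and Srgap2 with 3.22. The densities of Robo1 and Robo2 were lower with the longer gene spans of the RefSeq annotation, described at the end. Slit3 had 2.04, Srgap1 1.64 and Slit2 0.707. The median over protein-coding genes was 0.950 and the 95th percentile 4.87, so that 8 members lay above the median and only Slit1 lay above the 95th percentile. Taken over the 9 loci together, the density was 3.04 per 100 kb over 3712 kb.

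**Figure D2:**
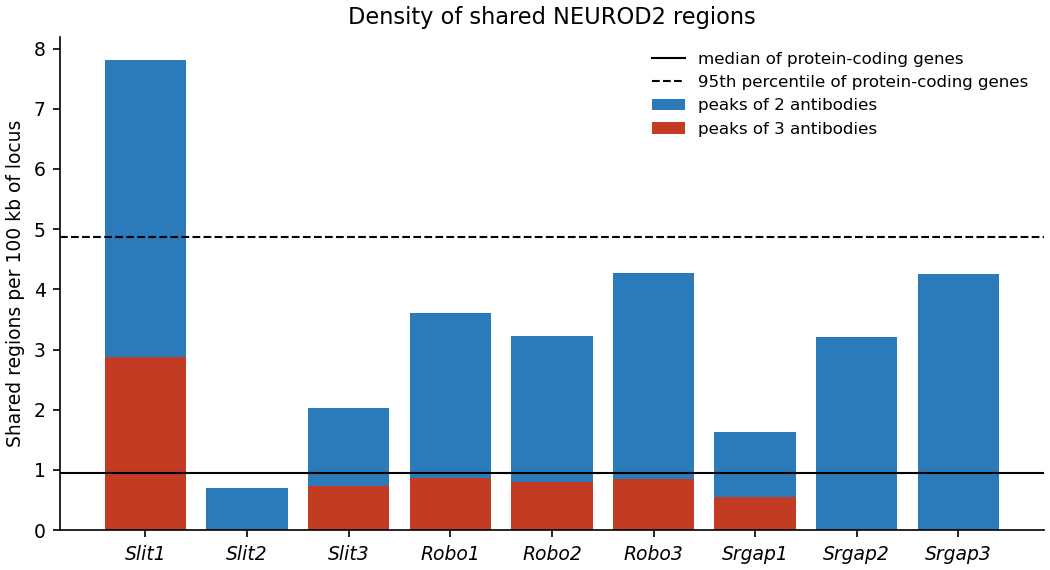
Bars give the shared regions per 100 kb of locus for each member, split into regions with peaks of 2 antibodies and of 3 antibodies, and the lines give the median and the 95th percentile of protein-coding genes. Slit1 at 7.81 is the only bar above the 95th percentile of 4.87, and Slit2 at 0.707 is the only one below the median of 0.950.

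Among the ligands, binding was unequal. Slit1, expressed by neurons of the forebrain and best known for guiding retinal and forebrain axons together with Slit2, had 25 regions of which 19 were shared and 7 carried all 3 antibodies. Slit3, which is also expressed outside the nervous system, had 24 regions with 14 shared and 5 of all 3 antibodies. Slit2, the ligand most studied at the midline, had 8 regions with 3 shared and none of all 3 antibodies. The loci of Slit2 and Slit3 are both longer than that of Slit1, at 425, 687 and 243 kb.

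Slit1 (ENSMUSG00000025020, chr19:41600259-41743665, minus strand) held its shared regions in groups. Of the 19, 10 lay in intron 4, which spans 68.3 kb and makes up 47.6% of the gene, and 4 of these 10 carried all 3 antibodies. The densest stretch of 50 kb held 9 shared regions. The strongest region, chr19:41684716-41686253 in intron 4, scored 2481 in ab1, 1832 in ab2 and 277 in ab3, at percentiles 97.7, 98.5 and 90.2. All 3 antibodies placed it high in their own lists. Its printed stretch shows a match 13 bp from the midpoint.

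Another intron 4 region of Slit1, chr19:41696944-41698126, scored 2322 in ab1 and 1127 in ab2, and its ab3 score, at percentile 91.5, was the highest among the members. In intron 1, chr19:41734094-41735738 lay 8.75 kb from the TSS and scored 3087, 1362 and 135. Upstream of the gene by 11.3 kb, chr19:41754424-41755459 scored 3100, 1039 and 198. The region at the TSS itself, chr19:41742844-41744739, had its midpoint 126 bp from the TSS and scored 255 in ab1 and 60.2 in ab2, at percentiles 65.9 and 12.8, with no ab3 peak. Of the 18 other shared regions of Slit1, 12 scored higher than it in ab1 and 6 lower. It contained 6 matches to the extended E-box over its 1896 bp and none in its central 200 bp, and a stretch with 2 overlapping matches, 436 bp from the midpoint, is shown because it is the only TSS region among the ligands.
Slit1, chr19:41744183-41744272, TSS region: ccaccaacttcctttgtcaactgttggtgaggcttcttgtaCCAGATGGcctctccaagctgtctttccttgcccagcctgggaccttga

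Slit3 (ENSMUSG00000056427, chr11:35121224-35708507, plus strand) spread its shared regions over the whole gene, with 7 of 14 in intron 4, which spans 273 kb. The strongest by percentiles, chr11:35142436-35143327 in intron 1, lay 21.7 kb from the TSS and scored 1240, 589 and 166. Its stretch carries a CAGCTG core beside a GT repeat. A region in intron 4, chr11:35286373-35287679, had the numerically highest ab1 score of any member, 3166, with 817 in ab2 and only 93.6 in ab3. Its order against regions with the tied ab1 score is uncertain. The ab3 value sat at percentile 53.6, near the middle of its list. No shared region came closer to the Slit3 TSS than the one in intron 1.

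Slit2 (ENSMUSG00000031558, chr5:47983138-48307733, plus strand) had 2 neighbouring shared regions in intron 4, 147 and 148 kb from the TSS, and another 7.22 kb upstream. The strongest, chr5:48129856-48130890, scored 314 in ab1 and 183 in ab2, at percentiles 71.1 and 63.3. The upstream region, chr5:47975611-47976225, scored higher in ab2 (267) than in ab1 (110), unlike 105 of the 113 shared regions of the members. No ab3 peak was called at the Slit2 locus, which given the small size of the ab3 list does not show that binding was absent.

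The receptors Robo1 and Robo2 bind Slits and mediate repulsion, and they were the members with the largest numbers of shared regions. Robo1 had 29 regions with 21 shared, and Robo2 had 29 with 20 shared, each with 5 of all 3 antibodies. By the count of shared regions per locus, Robo1 ranked 75 and Robo2 ranked 94 of the protein-coding genes. Their loci are long, and by density they ranked 2549 and 3096. The genes lie on the same chromosome. Robo3, a divergent receptor with a role in commissural axons that cross the midline, had 7 regions with 5 shared and 1 of all 3 antibodies over its short locus.

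Robo1 (ENSMUSG00000022883, chr16:72563700-73046095, plus strand) held 17 of its 21 shared regions in introns, 4 in intron 1, 8 in intron 2 and 3 in intron 3. The strongest region by percentiles, chr16:72887625-72888616 in intron 2, lay 324 kb from the TSS and scored 2565, 1528 and 249, at percentiles 97.8, 97.8 and 88.1. Its printed match is CAGATGG, 97 bp from the midpoint. In intron 3, chr16:72912880-72913886 scored 2744, 1661 and 232. Both lay in a stretch of 50 kb that held 7 shared regions.

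No shared region lay within 1 kb of the start of the longest Robo1 transcript, and the closest was 9.75 kb upstream with scores of 1421 in ab1 and 493 in ab2. Another annotated start of Robo1 lies inside intron 1 of the longest transcript, and the region chr16:72662807-72664099 covered it. That region scored 204 in ab1 and 67.9 in ab2, at percentiles 59.8 and 19.8, had no ab3 peak and no extended E-box in its central 200 bp, and was 71.5% G and C there. The 4 regions of introns 2 and 3 with all 3 antibodies scored higher in ab1 and ab2, while of the 7 other shared regions of these introns 2 scored higher than it in ab1 and 6 in ab2.

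Robo2 (ENSMUSG00000052516, chr16:73891839-74410989, minus strand) held 15 of its 20 shared regions in intron 2, which spans 306 kb, or 58.9% of the gene. The strongest region, chr16:74089631-74090433, scored 1972, 1075 and 151 and lay 321 kb from the TSS. Its only match to the extended E-box was 159 bp from the midpoint and therefore outside the central 200 bp. All 3 antibodies also met at chr16:74225201-74226524 (1989, 816 and 92.7), which held no extended E-box anywhere over its 1324 bp.

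Robo2 was the only member with more than 1 shared region within 1 kb of its TSS. The first, chr16:74410894-74412521, lay 718 bp upstream and scored 383 in ab1 and 296 in ab2, at percentiles 75.5 and 76.3. The second, chr16:74409432-74410555, lay in intron 1 with its midpoint 996 bp from the TSS and scored 195 and 146. Neither had an ab3 peak. The 4 intron 2 regions with all 3 antibodies scored higher than both in ab1 and ab2. Of the 11 other shared regions of intron 2, 1 scored higher than the first in both, with 790.3 and 309.5, 1 scored higher in ab1 only, and 9 scored lower in both. The stretch below, from the second region, is shown as a pair of overlapping matches close to the start of a receptor gene. It lies 149 bp from the midpoint, outside the central 200 bp.
Robo2, chr16:74409800-74409889, TSS region: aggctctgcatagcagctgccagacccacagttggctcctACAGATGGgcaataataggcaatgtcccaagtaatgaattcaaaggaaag

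Robo3 (ENSMUSG00000032128, chr9:37416045-37433246, minus strand) had 4 of its 5 shared regions upstream of the gene. The strongest, chr9:37437503-37438896, lay 4.95 kb upstream and scored 2452, 1174 and 175, at percentiles 97.6, 96.1 and 79.8. The other 4 scored between 108 and 416 in ab1 and between 69.5 and 124 in ab2. The region 41.9 kb upstream was closer to the start of Msantd2 than to Robo3. The neighbouring receptor gene Robo4 is so close that 4 of the shared regions of Robo3 are also within its 50 kb flank.

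The srGAP loci differed in antibody support among themselves. Srgap1 had 12 regions with 6 shared, 2 of them of all 3 antibodies. Srgap2 had 13 with 11 shared and Srgap3 had 25 with 14 shared, and no ab3 peak was called at either. The share with all 3 antibodies was 6.45% (1.79 to 20.7) of 31 shared regions at the srGAP loci, 23.9% (13.9 to 37.9) of 46 at the Robo loci and 33.3% (20.2 to 49.7) of 36 at the Slit loci. The srGAP interval overlaps those of the Robo and Slit loci. Whether these shares differ was not tested, since regions of 1 locus are not independent.

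Srgap1 (ENSMUSG00000020121, chr10:121780991-122047315, minus strand) had its strongest region, chr10:121956172-121957221, in intron 1, 90.6 kb from the TSS. It scored 1723, 1350 and 161, at percentiles 95.5, 97.1 and 77.3, and its printed match lies 8 bp from the midpoint. The second region with all 3 antibodies, also in intron 1 and 21.8 kb from the TSS, scored 346, 328 and 58.7. Of the remaining shared regions, 3 were closer to the start of the coding gene BC048403 than to that of the longest Srgap1 transcript. One of them lay 130 bp from the BC048403 start, and the others were closer to another annotated start of Srgap1.

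Srgap2 (ENSMUSG00000026425, chr1:131285251-131527347, minus strand), whose protein promotes neurite formation and slows migration, had shared regions of ab1 and ab2 only. The strongest, chr1:131293621-131294550 in intron 21, scored 1159 and 623, at percentiles 92.0 and 89.8. It was closer to the start of Ikbke, at 14479 bp, than to that of the longest Srgap2 transcript. Another annotated start of Srgap2 was closer still, at 2295 bp. Intron 7 held a region with a like ab1 score of 1162 and 427 in ab2. At the TSS, chr1:131524875-131528586 was the widest shared region of any member at 3712 bp, had its midpoint 617 bp into the gene, and scored 468 in ab1 and 134 in ab2. Its 5 matches to the extended E-box all lay outside the central 200 bp, and a stretch with 2 overlapping ones is printed above.

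Srgap3 (ENSMUSG00000030257, chr6:112717971-112947266, minus strand), also known as WRP and linked to the Rac pathway, held 8 of its 14 shared regions in intron 1, 116.8 kb long. The strongest, chr6:112733373-112734650, lay far from the TSS in intron 18 and scored 1222 in ab1 and 366 in ab2, at percentiles 92.6 and 80.9. In intron 1 the highest ab1 score was 737, in a region with 251 in ab2, and the highest ab2 score was 265, in a region with 530.3 in ab1. The closest shared region to the TSS lay 3.21 kb away and scored 159 in ab1, while its ab2 score was close to the lowest of that list.

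**Figure D3:**
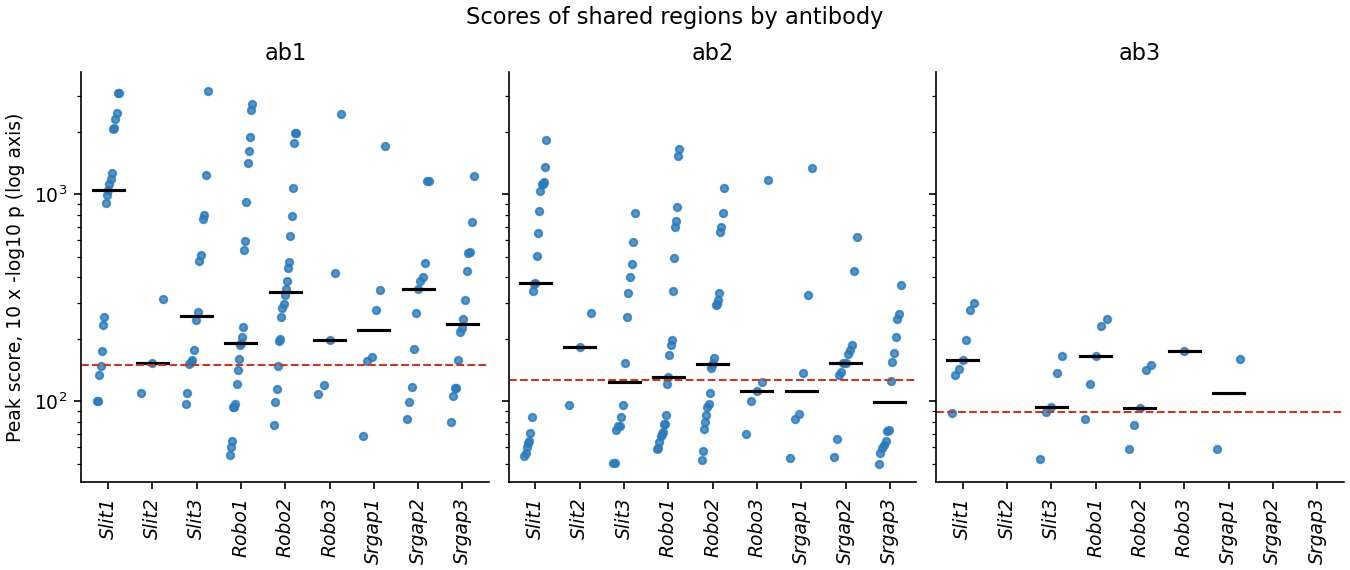
Points are the scores of shared regions at each member on a log axis, in 1 panel per antibody, black bars are the medians of a member, and the dashed line is the median of all peaks of that antibody. The median of Slit1 was 1055 in ab1 and 375 in ab2, the highest of the 9 members in both, and no points appear for Slit2, Srgap2 and Srgap3 in ab3.

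The median ab1 score of a shared region was 1055 at Slit1, 349 at Srgap2, 339 at Robo2 and 259 at Slit3, and lay between 153 and 238 at the other members. In ab2 it was 375 at Slit1, 183 at Slit2 and 154 at Srgap2, with 99.4 at Srgap3 as the lowest. Over all members, shared regions had a median percentile of 68.0 in ab1, 56.9 in ab2 and 73.0 in ab3, beside 68.1, 53.9 and 50.9 over all shared regions of the series. In ab3 these are 25 regions at 6 members, 7 of them at Slit1.

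Median scores in ab1 and ab2 were higher in regions supported by more antibodies, with overlapping ranges. The median ab1 score was 84.0 in regions of 1 antibody, 203 in those of 2 and 1902 in those of 3, and the median ab2 score was 62.3, 105 and 834. Median widths were 557, 752 and 1183 bp. Across the 113 shared regions the log10 scores of ab1 and ab2 had a Pearson r of 0.918. For the 25 regions of all 3 antibodies r was 0.650 between ab1 and ab3 and 0.660 between ab2 and ab3. These coefficients are across regions, which share libraries and, for ab2 and ab3, a control, and they are given as a description.

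Shared regions lay mostly inside genes and far from the starts of the longest-span transcripts. Of the 113, 95 were in introns (84.1%, 76.2 to 89.7), 2 in exons, 13 upstream and 3 downstream of the gene. Among the 97 within the gene span, 97.9% (92.8 to 99.4) were in introns, beside 82.3% of the shared regions within the span of any protein-coding gene. The exonic ones were in exon 6 of Slit1 and exon 26 of Robo1. Of all 113, 99 lay over 10 kb from the closest coding start (87.6%, 80.3 to 92.5), beside 77.3% in the series, and 73 over 50 kb (64.6%, 55.4 to 72.8), beside 51.2%. Long introns make up much of these genes, and the share was not corrected for it.

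The closest protein-coding start was that of the member itself for 91 of the 113 (80.5%, 72.3 to 86.8). When genes of every type competed, as they do in the gene score, it was 31 of 113 (27.4%, 20.1 to 36.3). With coding genes alone, the member's start was the closest for 45 of 46 regions at the Robo loci, 26 of 36 at the Slit loci and 20 of 31 at the srGAP loci. The exceptions were 5 regions of Slit1 closer to Gm340, 5 of Slit3 closer to Pank3, 4 of Srgap2 closer to Ikbke, 3 of Srgap1 closer to BC048403, 3 of Srgap3 closer to Rad18, and single regions near Msantd2 and Fam72a. Those of Slit1, Srgap2 and Srgap3, and some of Slit3 and Srgap1, lay closer to another annotated start of the member than to the neighbour start used. Which gene a region acts on cannot be read from its position.

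A shared region within 1 kb of the TSS was present at 3 members, Slit1, Robo2 and Srgap2, beside 20.8% of protein-coding genes. When the starts of all annotated transcripts were used it was present at 6 members, beside 24.8% of protein-coding genes under the same rule. Within 500 bp it was present at 1 member, beside 18.3%, and without ab1 or without ab2 at 0, beside 1.61% and 1.60%. There were 4 such regions, none with an ab3 peak, and their scores were 195 to 468 in ab1, with a median of 319, and 60.2 to 296 in ab2, with a median of 139.8. The medians of the shared regions farther away were 277 and 153. Their central 200 bp held 33.5 to 69.0% G and C with a median of 64.5%, beside a median of 49.5% in the 109 shared regions farther away. Srgap1 and Srgap3 had a region of ab1 alone within 1 kb of the TSS, with scores of 86.6 and 55.5. The promoter table of RefSeq (mm10), which gives 300 bases around a start, had 10 entries for 8 members and none for Slit1. None of the 10 held the extended E-box on either strand, a motif found in 26.3% of the 32851 promoters of the table.

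The gene score sums, over the shared regions for which a gene has the closest start, a weight that falls exponentially with distance with a decay length of 5000 bp. It was 1.69 for Robo2, 1.52 for Slit1 and 0.998 for Robo3, which passed a threshold of 0.993, set 1 SD above the mean of genes with a region. Thus 3 of 9 members passed, beside 6.35% of protein-coding genes. Robo3 exceeded it narrowly, and fell below it when only coding genes competed for regions, where 2 members and 4.24% of coding genes passed. With peaks scoring at least 100 only, Robo2 and Srgap2 passed, beside 10.2%, and without ab1 or without ab2 no member did, beside 2.06% in either case. Srgap2 reached 0.884, Robo1 0.156, Slit3 0.0207 and Srgap1 0.0128. Slit2 and Srgap3 stood at 0, because a start of another gene, of any type, was closer to each region than that of their longest transcript. The study's own target list was made from these same peaks, so it is no independent evidence. Its leading axon guidance targets include Slit1, Robo2 and Robo1, of which Robo1 did not pass here under the main setting. The values of Robo1 and Slit3, with 21 and 14 shared regions, depended on the decay length. With a decay of 50000 bp Robo1 passed beside Slit1, Robo2 and Robo3, which made 4 members beside 3.42% of coding genes. With no decay Robo1, Slit1 and Slit3 passed, beside 3.19%.

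The extended E-box was present in the central 200 bp of 73 of 113 shared regions (64.6%, 55.4 to 72.8), beside 59.7% of the shared regions of the series. Windows of 200 bp that began 1000 bp outside the regions held it at 26 regions on the side of lower coordinates (interval 16.2 to 31.6%) and at 28 on the other (24.8%, 17.7 to 33.5), beside 22.3% on each side in the series. The centre of the regions held the motif more often than the surroundings. The study derived this motif from the peak regions of these same libraries, so its presence in the centre is no independent evidence. Centre and side windows belong to the same regions, so their intervals do not test the difference. The share was 63.9% at the Slit loci, 65.2% at the Robo loci and 64.5% at the srGAP loci, with overlapping intervals. Any CANNTG was present in 90.3% (83.4 to 94.5), beside 83.6% in the series.

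**Figure D4:**
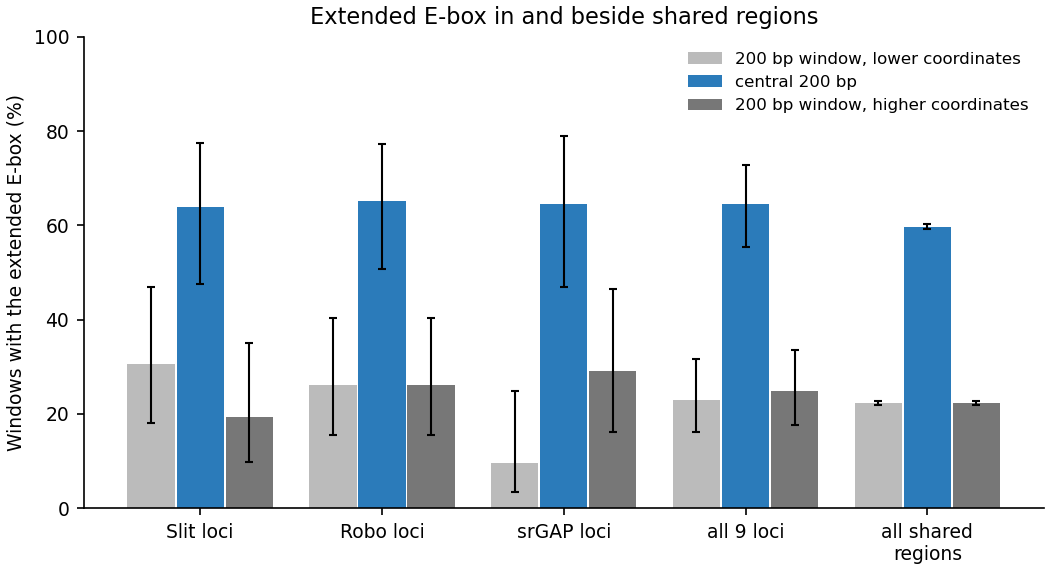
Bars give the percentage of 200 bp windows with the extended E-box, in the centre of shared regions and in windows 1000 bp beyond either end, for each gene family, all 9 loci and all shared regions of the series, with 95% Wilson intervals. The central share lies between 63.9 and 65.2% in each family, above the windows beside the regions.

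By antibody support, the motif was present in 72.0% (52.4 to 85.7) of the 25 regions with all 3 antibodies, in 62.5% (52.1 to 71.9) of the 88 with 2 and in 64.4% (51.7 to 75.4) of the 59 with 1, and these intervals overlapped. In the series it was 63.4% with all 3 antibodies and 58.6% with 2. The windows beside the 59 single-antibody regions held it in 20.3% and 18.6%. Among the forms of the core, CAGATG was the most frequent, in 45.1% (36.3 to 54.3) of the central windows of shared regions, and CAGCTG came next with 33.6% (25.6 to 42.7), beside 43.1% and 28.1% in the series. The core CATATG was present in 14.2% (8.91 to 21.8), beside 11.7%. A match is a description of the letters and no proof of a site.

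Other genes of the pathway were counted in the same way. Of 34 genes, 32 had a shared region, beside 67.6% of protein-coding genes, 12 had a region of all 3 antibodies, beside 26.7%, and 12 had a shared region within 1 kb of the TSS, beside 20.8%. Their median density was 1.63 per 100 kb, beside 0.950 over protein-coding genes. Of 11 co-receptors and Slit-binding genes, 10 had a shared region and none passed the gene score threshold. Of 19 effectors, 18 had a shared region and 3 passed, Sos1 (score rank 291 of 21938), Nck1 with a score of 1.06 and Abl2 with 0.998. Sos1 activates Ras and Rac, Nck1 is an adaptor that binds the Robo tail, and Abl2 is a kinase that acts on the actin cytoskeleton. Nell2, a secreted ligand of Robo3, passed with 1.08 and had 15 shared regions, 5 of them of all 3 antibodies. All 3 trafficking genes had a shared region and none passed. In all, 4 of the 34 passed, beside the 6.35% of protein-coding genes given above.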

How the data were processed

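NEUROD2 ChIP-Seq peak lists of 3 antibodies, 1 library each, were used as deposited. According to the study's methods, the authors aligned single-end reads to the mm10 genome using Bowtie, discarded duplicate and multiply mapping reads, and ran MACS separately for each antibody, with a GFP precipitate from a host-matched antibody as control. The deposited score of a peak is 10 times the −log10 p-value of the caller. Reads, depth and the GFP libraries were not analysed here, and how depth sets the number of peaks cannot be told from peak lists.

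Positions are 1-based on mm10 (GRCm38) with the transcripts of GENCODE M21, using the longest-span transcript of each gene. Overlaps of at least 1 bp were merged. Motifs were read from GRCm38, a C57BL/6J sequence, so variants of BALB/c were not seen. The gene score assigns each region to its closest start, as the study's closest-gene method does. The exponential weight and its decay length were set here and no random set was subtracted, so its values are not on the study's scale. The merging, distance, motif and score functions were tested on simulated data. Python 3.11.15, numpy 2.4.6, pandas 2.3.3 and matplotlib 3.10.9 were used.

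The members, the pathway list and the settings were chosen with earlier results of these data known. Named were all 9 members, the strongest shared region of each, every shared region within 1 kb of a TSS, neighbours with the closest coding start, and pathway genes above the score threshold. Further regions in the text were chosen after their values were seen. Alternatives were each antibody left out, a score of at least 100, a 50% overlap, other flanks, support, positions, motifs, windows, distances, transcripts and decay lengths, and RefSeq gene spans, added after seeing the data.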

Additional observations from a re-analysis of the deposited data

How the results depend on the processing

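The main limits are that each antibody has 1 library, that ab3 has few peaks, and that a peak list does not show weaker binding under the caller's cutoff. Leaving out an antibody gave 25 to 113 shared regions, 0.674 to 3.04 regions per 100 kb, 0 to 3 members with a region near the TSS, 0 to 3 above the gene score threshold, 84.1 to 92.0% in introns, 80.5 to 88.0% with the closest coding start of a member and 64.0 to 76.0% with the extended E-box. Requiring all 3 antibodies gave 25 regions, 0.674 per 100 kb, 0 members near the TSS, 0 above the threshold, 92.0% in introns and 88.0% closest to a member, while any antibody gave 172 regions, 4.63 per 100 kb and 5 members near the TSS, beside 37.2% of protein-coding genes. With a peak score of at least 100 there were 68 shared regions, or 1.83 per 100 kb, and Slit1 and Robo3 no longer passed the score threshold. Robo3 also missed it with regions of any antibody, with a decay of 1000 bp, with no decay and when only coding genes competed, and Robo2 missed it with no decay, where Robo1, Slit1 and Slit3 passed. The intron share was 97.9% with no flank, 92.2% with 10 kb and 73.1% with 100 kb. The E-box share was 90.3% for any CANNTG, 46.0% in the central 100 bp and 94.7% over whole regions. Near the TSS there were 1 member within 500 bp, 5 within 5 kb and 6 with all annotated transcripts, beside 18.3, 26.4 and 24.8% of protein-coding genes. When genes of every type competed, 27.4% of regions had a member's start as the closest. Of 90 alternative values, 56 stayed within 1.5 times the count or within the interval of the share. No paired analysis was possible because each antibody has a single library.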

Other observations

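RefSeq places the starts of Robo1 and Robo2 farther upstream than the longest GENCODE transcripts do, with gene spans of 1020 and 1555 kb, a comparison added after the values were seen. The added stretches held 6 further shared regions at Robo1, 2 of them of all 3 antibodies, and 6 at Robo2, 4 of them of all 3 antibodies. Robo1 then held 27 shared regions and Robo2 26 over these longer spans, so that both densities were lower than those given above. The strongest was chr16:74597599-74599334, upstream of the longest GENCODE transcript of Robo2 but inside the RefSeq gene. It scored 3100 in ab1, 1127 in ab2 and 242 in ab3 and had no extended E-box in its central 200 bp. Likewise upstream of the longest GENCODE transcript of Robo1, chr16:72510385-72511608 scored 1606, 1101 and 147 and had the motif. With RefSeq spans the 9 loci held 125 shared regions, 24.8% of them with all 3 antibodies, 64.0% with the extended E-box and 2.36 per 100 kb.

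The microRNA genes Mir218-1 and Mir218-2 lie in intron 14 of Slit2 and of Slit3, and were looked at after the values were seen. Both give the same mature microRNA, which is known to target Robo transcripts, printed from RefSeq with its seed in capitals.
mmu-miR-218-5p: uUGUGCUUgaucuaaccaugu
The closest shared region lay 15.1 kb from Mir218-2 and 92.6 kb from Mir218-1. A region of ab1 alone, with a score of 57.2, lay 1692 bp from the start of Mir218-1. For 5 shared regions of Slit3 the start of Mir218-2 was the closest of any gene type, and 2 shared regions lay within 50 kb of it.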
